A study of Mus musculus with 24 samples.

Results

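The data described here are the 4 cDC2 and 4 cDC1 libraries of mouse spleen in which CD11c-driven Cre had acted on floxed Zeb2, 8 of the 24 RNA sequencing libraries of the study, chosen by their labels (cDC2 KO CRE+ and cDC1 KO CRE+). The comparison between them asks which expression differences between the cDC1 and cDC2 subsets of conventional dendritic cells stand after Cre had acted on Zeb2. It was read beside the same comparison in Cre-negative libraries, which share no library with it.

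All mice were C57Bl/6 animals of 6 to 12 weeks in the steady state. The deletion groups carried CD11cCRExZeb2fl/fl and are called cDC1 or cDC2 with the deletion below. Their littermates carried Zeb2fl/fl without Cre, with 2 libraries per subset. Every library with the deletion thus also carried CD11c-driven Cre, and every littermate library lacked it. Effects of Cre itself and of the loss of Zeb2 cannot be told apart in these comparisons, and "with the deletion" stands for both. A further 2 Cre-negative libraries per subset came from the line with R26-Zeb2Tg/Tg, a Zeb2 transgene at the Rosa26 locus whose expression needs Cre, and the 8 libraries in which Cre had acted on that transgene served here only to estimate the spread between libraries. Cre in this design follows CD11c, a gene of dendritic cells that other myeloid cells also express, and the sorted cells are those that remained in the spleen after Cre had acted. The labels name the sorted subset but not the surface markers of the gate, and they leave unstated which mice gave which replicates, so the p-values cover only the spread among these libraries, which may be technical. The 24 libraries held 21972763 to 36094786 counts over genes, and the 8 with the deletion 23647541 to 27095113. In bulk libraries, fewer cells of a type and less RNA per cell cannot be told apart.

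Zeb2 encodes a zinc-finger transcription factor that mostly represses genes through E-box sites of the form CACCT. cDC1 are known for taking up dead cells and presenting their antigens to CD8 T cells, and they depend on Irf8, Batf3 and Id2. cDC2 are known for priming CD4 T cells and depend on Irf4 and, for the splenic Esam-positive cells, on Notch2 signals. Id2 is an inhibitor that binds E proteins such as Tcf4 and keeps them from DNA, and per the series title its repression by Zeb2 was the question of the study. In spleen, Zeb2 is normally far more abundant in cDC2 than in cDC1.

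Zeb2 (chr2:44983512-45117442, GRCm38.p6) still differed between the subsets after the deletion. Its level was 38, 41.4, 33 and 30.7 CPM (counts scaled to a common library total) in the 4 cDC2 libraries with the deletion and 0.686, 0.457, 1.06 and 2.67 CPM in the 4 cDC1 libraries. Littermate cDC2 stood at 176 and 132 CPM and littermate cDC1 at 0.488 and 2.56 CPM. Every cDC2 library with the deletion was thus below both littermate cDC2 libraries and above every cDC1 library. The log2 fold change of cDC2 over cDC1 with the deletion was 4.89 ± 0.32 (SE), a 29.6-fold difference (adjusted p = 9.89e-12, edgeR quasi-likelihood test with Benjamini-Hochberg adjustment). It was 6.69 in the littermates. The difference between these contrasts, -1.80 ± 0.56 on the log2 scale, did not pass the threshold (adjusted p = 0.129), and without littermate cDC1 replicate 2 it was -3.42 (adjusted p = 0.0207). Without cDC1 replicate 4 with the deletion the log2 fold change between the subsets was 5.61. Counts cover the whole gene, so reads from the parts of Zeb2 that Cre leaves in place are included. Whether some of the sorted cDC2 kept intact Zeb2 was not tested.

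Id2 (chr12:25093799-25096092) remained higher in cDC1 with the deletion, but by less than in the littermates. The cDC1 libraries with the deletion held 1466, 1453, 1342 and 1234 CPM and the cDC2 libraries 494, 625, 526 and 562 CPM, with no overlap. Littermate cDC1 held 1579 and 1311 CPM and littermate cDC2 188 and 315 CPM, so that every cDC2 library with the deletion was above both littermate cDC2 libraries. The log2 fold change was -1.32 ± 0.13 with the deletion (adjusted p = 7.16e-09, edgeR), a 2.49-fold excess in cDC1, and -2.52 in the littermates. The difference between these contrasts was 1.21 ± 0.22 (adjusted p = 0.00617, edgeR). It lost significance without littermate cDC1 replicate 1 (1.07, adjusted p = 0.0549) or littermate cDC2 replicate 1 (0.873, adjusted p = 0.0977). An exact two-sided permutation test of log2 CPM between the 4 and 4 libraries gave p = 0.0286 for Zeb2 and for Id2, the smallest value that 70 assignments allow.

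Most of the transcriptome that separates the subsets stood after the deletion. Of 13166 genes tested, 3819 were higher in cDC2 than in cDC1 and 3564 lower with the deletion, which is 29% and 27.1% of the genes tested, 56.1% in all. At least 2-fold differences were called for 1933 genes higher (14.7%) and 1226 lower (9.31%) in cDC2. In the 8 Cre-negative libraries of both lines, which match the 4 against 4 of the deletion, 53.4% of genes were called and 1828 (13.9%) and 1193 (9.06%) were at least 2-fold higher or lower. The littermates alone, with 2 libraries against 2, gave calls for 39.5%, and the Cre-negative libraries of the transgene line for 41.5%.

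The genes at least 2-fold apart in the Cre-negative libraries were then followed into the deletion. Of the 1828 higher in control cDC2, 1611 (88.1%) were called higher in cDC2 with the deletion and 1490 (81.5%) were still at least 2-fold apart. The other 217 were not called, and 0 were called in the opposite direction. Of the 1193 higher in control cDC1, 1033 (86.6%) were called with the same direction and 915 (76.7%) remained at least 2-fold apart, 156 were not called and 4 were called in the opposite direction. In reverse, 1639 (84.8%) of the 1933 genes at least 2-fold higher in cDC2 with the deletion and 1079 (88%) of the 1226 lower were called in the same direction in the Cre-negative libraries. The 2 sets of libraries have no sample in common.

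The widest differences with the deletion were named by rule only among genes with a mean log2 CPM of at least 2 over the 8 libraries. Their abundance is thus set by the rule. Wider log2 fold changes fell outside it, as for Clec4a4 (13.27) and Sirpb1a (10.87). Within it, the genes furthest toward cDC2 included Tlr7, Clec4a1 and Dtx1. Il1rn, the antagonist of interleukin-1, stood at 102, 162, 82.3 and 96.4 CPM in cDC2 and 0.305, 0.915, 0.309 and 0.216 CPM in cDC1, a log2 fold change of 7.97 that was 8.61 without cDC1 replicate 2. Pltp, the phospholipid transfer protein, was at 60.0, 115, 76.3 and 79.6 CPM and 0.381, 0.873, 0.176 and 0.819 CPM. Its log2 fold change of 7.19 stood beside 9.13 in the littermates. Cyp4f37, a cytochrome P450 gene with close relatives, had 8.39 and 8.89. At the other end, Fzd1, a receptor for Wnt ligands, was at 189.5, 148, 180.0 and 215 CPM in cDC1 and 0.116, 0.356, 0.116 and 0.426 CPM in cDC2. Rab7b, a GTPase of endosomes, was at 433, 411, 457 and 450.4 CPM in cDC1 and 0.814, 2.65, 1.70 and 0.658 CPM in cDC2. Ifi205, of a family of near-identical interferon-inducible genes, and Pianp had log2 fold changes of -7.22 and -7.04 with the deletion and -8.40 and -5.33 in the littermates. P3h2, a collagen prolyl hydroxylase, had -6.94 and -10.56, and its difference of 3.61 ± 0.71 passed the test (adjusted p = 0.0117, edgeR). The call of this difference was not followed under the alternative runs.

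With the deletion, all 19 tested cDC1 identity genes were higher in cDC1 than in cDC2, where 27.1% of all genes were. The same 19 were called that way in the littermates. The cells were sorted by subset, so genes of any marker used in the gate would be held apart by the sort itself. This count thus cannot test whether cells kept their identity without Zeb2. Xcr1, the chemokine receptor that marks cDC1, was at 1027, 1017, 913 and 988 CPM in cDC1 with the deletion and 4.26, 6.02, 5.26 and 5.88 CPM in cDC2. Its log2 fold change was -7.52 with the deletion and -7.59 in the littermates, nearly the same value. Irf8, the transcription factor on which cDC1 depend, held 3659, 4252, 3757 and 3929.7 CPM in cDC1 and 67, 91.7, 69.2 and 75.5 CPM in cDC2, a 51.4-fold difference. Batf3, its partner in cDC1, had the smallest difference of the list, 76, 91.6, 70.0 and 73.3 CPM against 52.3, 52, 45.5 and 53.8 CPM, with a log2 fold change of -0.61 ± 0.12 (adjusted p = 0.00012, edgeR). Tlr3, the sensor of double-stranded RNA, and Tlr11, the sensor of parasite profilin, differed by -5.01 and -3.67 with the deletion and -5.97 and -3.84 in the littermates. The adhesion molecules Cadm1 and Itgae differed by -5.67 and -6.31 with the deletion and -4.51 and -9.43 in the littermates, and the test of the difference between the contrasts missed the threshold for both (adjusted p = 0.0573 and 0.266, edgeR). The lectin receptor Ly75 differed by -2.95 and -3.37. Cd207, another lectin receptor, was at 23, 25.6, 31.1 and 21.6 CPM in cDC1 and was read in 1 of the 4 cDC2 libraries with the deletion, replicate 4, without which its fitted log2 fold change of -8.65 was -12.35. Cd8a, a surface marker of splenic cDC1, was 206-fold and Cd24a, a glycoprotein of cDC1, 20.2-fold higher in cDC1.

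Other members of the list had nearly equal differences with and without the deletion. Ppt1, a lysosomal palmitoyl thioesterase, was at 5198, 5189, 5356 and 5218 CPM in cDC1 with the deletion and 199, 183, 183 and 185 CPM in cDC2, against 5488 and 5562 and 185 and 198 CPM in the littermates. Its log2 fold change was -4.81 ± 0.08 with the deletion and -4.85 in the littermates. Naaa, an acid amidase, had -5.24 and -5.41. Wdfy4, which is needed for cross-presentation, had -1.56 and -1.68, and the inhibitory receptor Btla -2.64 and -2.96. Gcsam, an adaptor of the germinal centre, ranged from 0.0774 to 0.155 CPM in cDC2 with the deletion and from 366 to 420.3 CPM in cDC1. Of the 19 members, 3 passed the test of the difference between the contrasts, which 1.08% of all genes tested did. Hepacam2, an immunoglobulin-like adhesion protein, had a smaller difference with the deletion (-4.57 against -6.35, difference 1.78, adjusted p = 0.0236, edgeR). That call was not followed under the alternative runs. Clec9a and Cd36 had larger differences with the deletion and are described below.

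Of 20 cDC2 identity genes, 18 were higher in cDC2 with the deletion, where 29% of all genes were, and the same number were higher in the littermates. The limit set by the sort holds for this list too. Sirpa, the inhibitory receptor that marks cDC2, held 1321, 1539, 1281 and 1442 CPM in cDC2 with the deletion and 1.90, 4.24, 4.94 and 6.30 CPM in cDC1, with log2 fold changes of 8.34 with the deletion and 8.28 in the littermates. Irf4, a transcription factor of cDC2, was at 253, 515, 496 and 355 CPM in cDC2 and 6.25, 15.6, 15.3 and 9.10 CPM in cDC1. Replicate 1 was the lowest cDC2 library for Irf4 and also for Klf4, another transcription factor of cDC2, which ran from 55.2 to 218 CPM in cDC2 and from 11.1 to 44.5 CPM in cDC1. Of 11 genes tied to the Esam-positive cDC2, 8 were higher and 3 lower in cDC2 with the deletion, against 8 and 2 in the littermates, and 0 passed the test of the difference by edgeR. Esam itself, an adhesion molecule, had a log2 fold change of 3.02 with the deletion and 2.94 in the littermates. Cd4 had 4.91 and 5.11, and Tbx21, a transcription factor best known from T cells, 4.69 and 4.76. Dtx1, a target of Notch, had 9.43 and 8.73, and 10.02 without cDC1 replicate 3. Clec4a4, the lectin receptor detected by the antibody 33D1, had 15460 counts over the 4 cDC2 libraries with the deletion and 1 over the 4 cDC1 libraries, a ratio of 14471 (95% counting interval 2597 to 571626).

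Other genes of the list called higher in cDC2 were Itgam, the integrin CD11b (6.34), the lectin receptors Clec4a2 (5.89), Clec10a (6.50), Cd209a (5.13) and Mgl2 (4.95), and the cytokine gene Ltb (4.23), all as log2 fold changes with the deletion. Mgl2 was low and uneven among the cDC2 libraries, with 8.33, 2.93, 9.44 and 3.17 CPM against 18.4 and 10.8 CPM in the littermates, and littermate cDC1 had 2 counts of it in all. The ion channel-like Tmem176a and Tmem176b, the NF-kappa B subunit Relb and the inhibitory receptor Cd300a were higher in cDC2 by 9.85-, 12.3-, 3.82- and 3.90-fold. The 2 members lower in cDC2 were Clec12a and Notch2. Notch2, the receptor on which Esam-positive cDC2 depend, was at 279.9, 320.1, 236 and 233 CPM in cDC2 and 309.5, 318, 319 and 385 CPM in cDC1 with the deletion, and its groups overlapped. That call (log2 fold change -0.32, adjusted p = 0.0191, edgeR) was lost without cDC1 replicate 4, cDC2 replicate 3 or cDC2 replicate 4, with adjusted p up to 0.0874. Clec12a was the single member of the list to pass the test of the difference. Of 11 genes tied to the Esam-low cDC2, 8 were higher and 2 lower with the deletion, against 7 and 1 in the littermates, and 4 passed that test, which 1.08% of all genes did: Clec12a, Ccr2, Csf1r and Lyz2, all by a fall in cDC2 relative to cDC1. The calls of Clec12a and Csf1r were each lost in 2 of the fits without 1 library and that of Ccr2 in 10, while that of Lyz2 held.

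**Figure D1:**
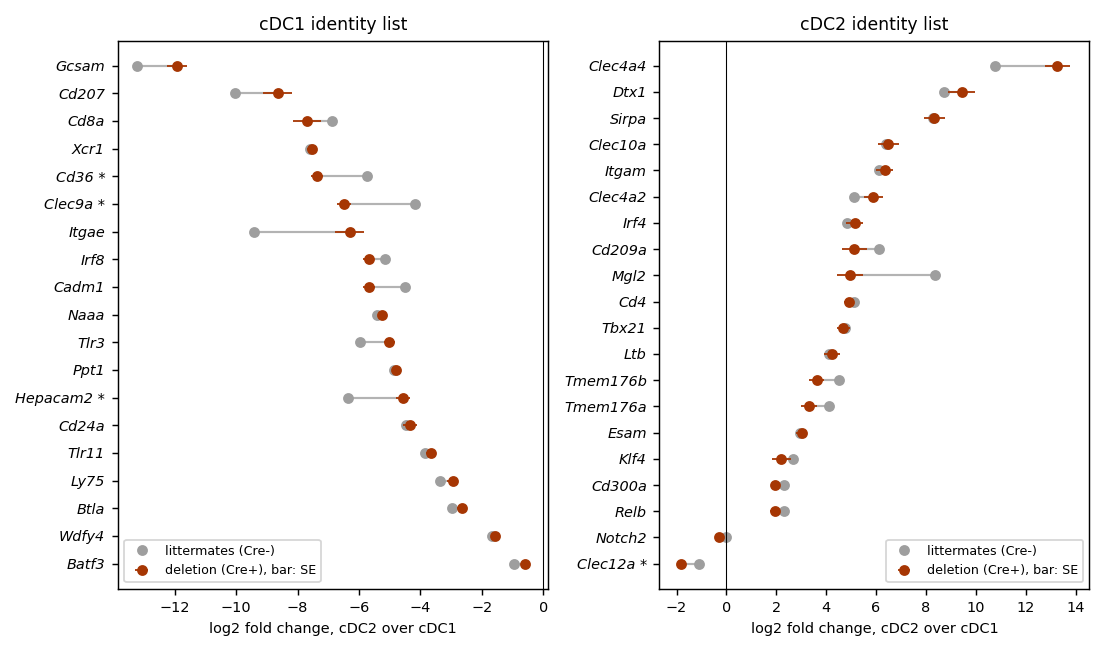
Log2 fold change of cDC2 over cDC1 for the 19 cDC1 and 20 cDC2 identity genes tested, with the deletion (dark points, bars of 1 SE) and in the littermates (grey points). An asterisk marks the genes whose difference between the contrasts passed the threshold, Clec9a, Cd36 and Hepacam2 on the left and Clec12a on the right, and every cDC1 identity gene lies below 0 in both.

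The subsets' wider programmes were followed with signatures chosen in the Cre-negative libraries of the transgene line, at least 4-fold apart there, so that neither the deletion nor its littermates chose them. The cDC2 signature held 930 genes and the cDC1 signature 487. With the deletion, 858 (92.3%) of the cDC2 signature were called higher in cDC2 and 439 (90.1%) of the cDC1 signature lower, against 29% and 27.1% of all genes. The littermates gave 793 (85.3%) and 424 (87.1%), against 20.1% and 19.4% of all genes, with fewer libraries. The median log2 fold change of the cDC2 signature was 3.36 with the deletion and 3.54 in the littermates. For the cDC1 signature it was -2.69 with the deletion and -2.93 in the littermates. Over all genes tested the medians were 0.0469 and 0.0335. Only 1 gene of the cDC2 signature and 2 of the cDC1 signature were called in the opposite direction with the deletion.

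Within the cDC2 libraries, the cDC1 signature had a mean log2 CPM of 0.25, 0.51, 0.54 and 0.44 with the deletion. It was 0.24 and 0.17 in littermate cDC2 and 0.00 and -0.05 in Cre-negative cDC2 of the transgene line. The signature was chosen in those transgene-line libraries, which favours low values there. Replicate 1 with the deletion thus lay beside the littermates and the other 3 above them. In cDC1 the same signature stood at 3.54, 3.65, 3.70 and 3.56 with the deletion and 3.72 and 3.78 in the littermates. The cDC2 signature in cDC2 stood at 2.80, 2.96, 2.92 and 2.87 with the deletion and 2.86 and 2.90 in the littermates, overlapping values. By the test of the difference, 29 genes of the cDC1 signature moved away from the cDC1 side with the deletion and 7 toward it. Of all genes tested, 0.433% moved away from the cDC1 side and 0.349% toward it. For the cDC2 signature and the cDC2 side the counts were 7 and 3, beside 0.144% and 0.152% of all genes. These counts go by the sign of the difference, not by the size of the contrast.

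**Figure D2:**
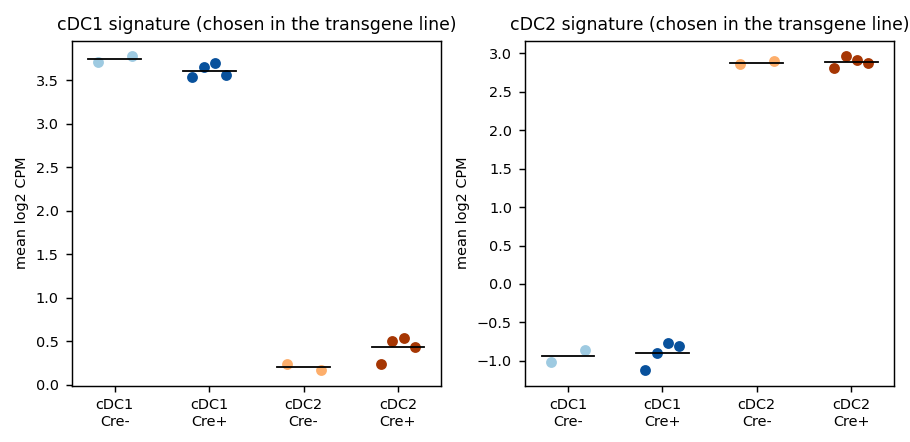
Mean log2 CPM of the cDC1 signature (left, 487 genes) and the cDC2 signature (right, 930 genes) in each library of the deletion line, with group means as bars. The cDC1 signature in cDC2 lies at 0.25 to 0.54 with the deletion and 0.17 to 0.24 in the littermates, far below cDC1 at 3.54 and above, and the vertical axes do not start at 0 because they are log values.

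The size of the subset difference changed for few genes. The difference between the contrast with the deletion and that of the littermates passed the threshold for 142 genes, 1.08% of those tested (1788 at an unadjusted p under 0.05). Each gene was assigned to the subset in which it was higher in Cre-negative cells of the transgene line. A contrast was called narrowed where, relative to the littermates, it lay further from that side with the deletion. It was called widened where it lay further toward that side. It narrowed for 57 genes of the cDC1 side (0.433%) and 19 of the cDC2 side (0.144%), and widened for 46 (0.349%) and 20 (0.152%). For 50 of the 142 genes the fold change had opposite signs in the littermates and with the deletion, and for 13 its size moved against the name of the class. Counting only genes whose side was called in those cells, the numbers were 51 and 11 narrowed and 27 and 12 widened, 101 in all. In 134 of the 142 genes the level moved further in cDC2 than in cDC1. The same share was not counted over all genes tested, so this number is not read as a trait of these genes.

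The littermate groups of 2 libraries limit these counts, and 1 library could lower them. Given in the order narrowed cDC2 side, narrowed cDC1 side, widened cDC2 side and widened cDC1 side, they were 4, 14, 0 and 3 without littermate cDC2 replicate 1. They were 6, 30, 6 and 9 without littermate cDC1 replicate 1 and 10, 27, 9 and 15 without littermate cDC1 replicate 2. Of the libraries with the deletion, leaving out cDC1 replicate 1 gave 10 narrowed and 7 widened genes of the cDC2 side and 29 widened genes of the cDC1 side. Leaving out cDC2 replicate 1, 2 or 4 gave 10, 12 and 12 narrowed genes of the cDC2 side and 9, 10 and 11 widened genes of it. Leaving out cDC1 replicate 2 or 4 gave 11 and 9 widened genes of the cDC2 side, and leaving out Cre-negative cDC2 replicate 1 or 2 of the transgene line 8 and 11. On simulated counts for this difference, 59% of 2-fold and 92% of 4-fold changes were recovered, in genes at 1 CPM or more in both subsets.

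**Figure D3:**
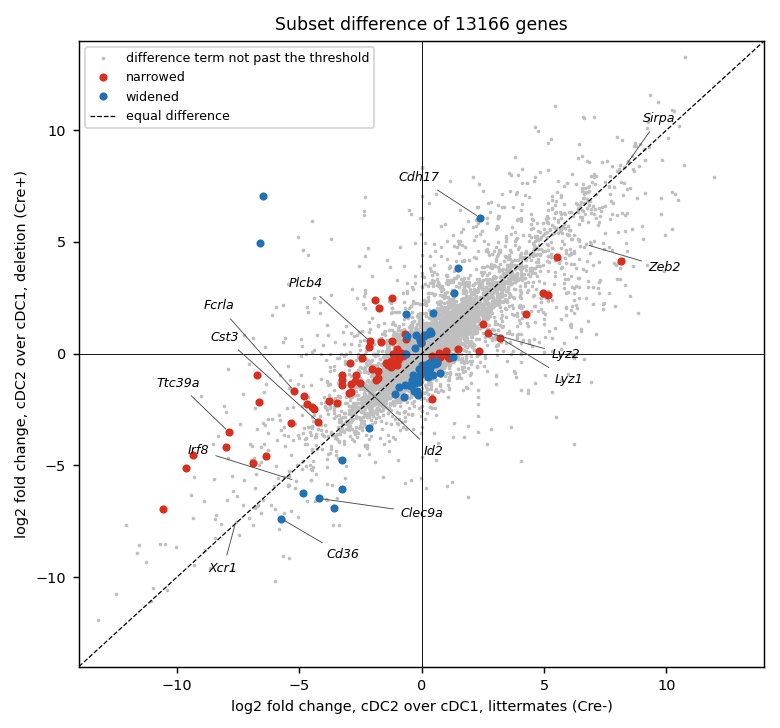
Log2 fold change of cDC2 over cDC1 for each of 13166 genes in the littermates (horizontal) and with the deletion (vertical), with the line of equal difference dashed. Red points are the 76 genes that moved away from the side they had in Cre-negative cells of the transgene line (narrowed) and blue points the 66 genes that moved toward it (widened), and the genes named lie on either side of the line, as Ttc39a at -7.89 and -3.50 and Clec9a at -4.18 and -6.48. The 2 blue points at the upper left are Chil3 and Slc4a1, which were at 0 in littermate cDC2.

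The genes of the cDC1 side whose contrast narrowed with the smallest p included Plcb4, Lsr, Snx22, Ttc39a, Cst3, Cxcr3 and Fcrla, and cDC2 with the deletion held more of each than both littermate cDC2 libraries. The class was picked by the direction of the difference, so the shared direction of these genes follows from the choice. Zeb2 is known to bind CACCT, and the 250 bases before their annotated starts (RefSeq, GRCm38.p6) were read for it on both strands. The strings were CACCT or its complement AGGTG and the longer CACCTG or CAGGTG, the longer motif containing the shorter. Of the 8 genes with the smallest p, 7 had a window, of which 5 held CACCT and 4 CACCTG in at least 1 window, where 49.37% and 19.43% of all 27025 genes with a window did, counted the same way. The named genes with a window in the other classes gave 0 of 6 with CACCT for the narrowed cDC2 side, 4 of 5 for the widened cDC2 side and 2 of 8 for the widened cDC1 side, and 0, 2 and 0 of them with CACCTG. The window of Id2 held 0 of either. By single windows, 45.97% and 17.22% of all 32851 held CACCT and CACCTG. A match is a string of letters and not a measured binding site. The windows of Lsr (chr7:30973470-30973719, minus strand) and Fcrla (chr1:170927584-170927833, minus strand, inside the span of the gene) are shown because they hold 4 and 1 copies of the longer motif. Ttc39a (chr4:109415397-109415646, plus strand, inside the span of the gene) is shown for its 2 copies of the shorter alone. The capitals mark CACCT or AGGTG, 5′ to 3′ along each gene's strand, and CACCT followed by g or AGGTG preceded by c is the longer motif.
Lsr: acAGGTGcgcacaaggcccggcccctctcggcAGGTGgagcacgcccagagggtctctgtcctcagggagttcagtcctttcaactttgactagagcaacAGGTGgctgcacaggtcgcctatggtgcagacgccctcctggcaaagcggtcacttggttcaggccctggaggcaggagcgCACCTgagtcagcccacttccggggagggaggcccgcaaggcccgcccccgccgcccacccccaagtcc
Fcrla: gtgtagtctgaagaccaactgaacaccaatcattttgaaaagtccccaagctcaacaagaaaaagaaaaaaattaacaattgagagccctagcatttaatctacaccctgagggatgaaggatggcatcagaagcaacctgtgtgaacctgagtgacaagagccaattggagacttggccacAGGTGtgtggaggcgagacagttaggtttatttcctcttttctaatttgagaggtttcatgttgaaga
Ttc39a: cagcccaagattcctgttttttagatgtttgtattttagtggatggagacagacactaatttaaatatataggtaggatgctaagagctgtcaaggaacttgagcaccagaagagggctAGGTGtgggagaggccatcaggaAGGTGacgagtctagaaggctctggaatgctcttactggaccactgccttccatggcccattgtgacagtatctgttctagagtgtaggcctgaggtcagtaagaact

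Lsr (chr7:30957770-30973469) encodes the lipolysis-stimulated lipoprotein receptor, which is also a protein of tricellular junctions. Littermate cDC2 held 19.9 and 21.6 CPM and cDC2 with the deletion 70.7, 94.4, 87.9 and 81 CPM, while cDC1 with the deletion held 188, 253, 235 and 208 CPM. Its log2 fold change went from -3.27 in the littermates to -1.40 with the deletion, a difference of 1.87 ± 0.20 (adjusted p = 1.23e-05, edgeR). Ttc39a (chr4:109394147-109444749), a tetratricopeptide-repeat protein, was almost silent in littermate cDC2 at 0.784 and 0.615 CPM and stood at 8.72, 24.7, 11.6 and 15.8 CPM in cDC2 with the deletion. In cDC1 with the deletion it was at 158, 186, 181 and 161 CPM, and the difference of 4.39 ± 0.48 was the largest of these 7 genes. Fcrla (chr1:170917594-170932216), an intracellular Fc receptor-like protein known from B cells, rose in cDC2 from 0.859 and 2.00 CPM in the littermates to 17.2, 13.4, 25.7 and 17.8 CPM with the deletion. Its difference was 3.56 ± 0.47 (adjusted p = 0.000217, edgeR), and 4.28 without littermate cDC2 replicate 2. These 7 genes kept their calls of the difference under every alternative run.

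Cst3 (chr2:148871722-148875512), the cysteine protease inhibitor cystatin C and among the most abundant messages of cDC1, held 17898, 18407, 16791 and 15271 CPM in cDC1 with the deletion. Its cDC2 libraries were tightly grouped, at 2135, 2058, 2013 and 1985 CPM with the deletion and 809.9 and 937 CPM in the littermates. The subset difference went from -4.22 to -3.06, a change of 1.16 ± 0.13 (adjusted p = 1.38e-05, edgeR). Cxcr3 (chrX:101731535-101734147), the receptor of the interferon-induced chemokines Cxcl9 and Cxcl10, stood at 24.8, 18.8, 19.6 and 24.6 CPM in cDC2 with the deletion and 3.02 and 4.61 CPM in littermate cDC2. In cDC1 it was at 102, 101, 103 and 108 CPM with the deletion and 100.2 and 97.8 CPM in the littermates. Snx22, a sorting nexin, went in cDC2 from 2.54 and 2.96 CPM to 13.6, 12.4, 15.1 and 10.2 CPM. Its subset difference with the deletion was -3.10, so it stayed far more abundant in cDC1.

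**Figure D4:**
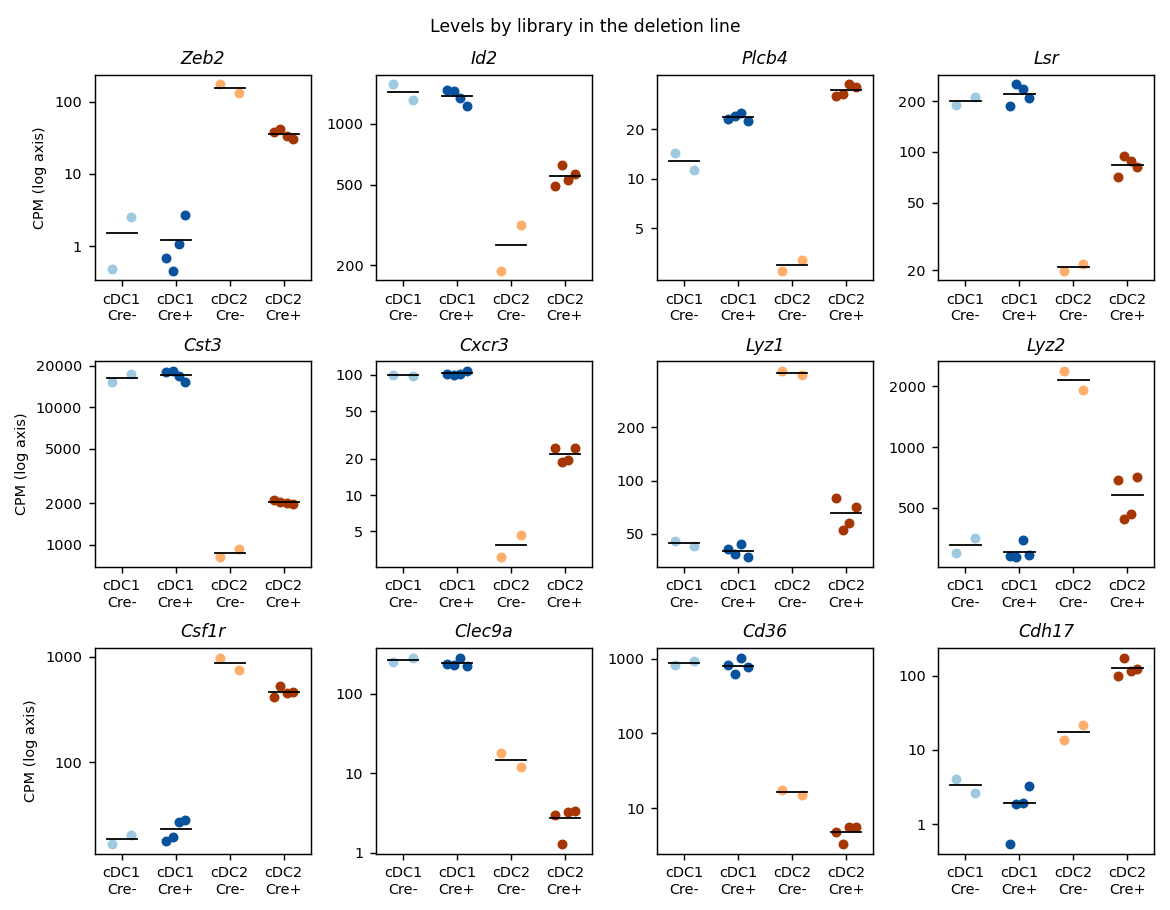
CPM on log axes of 12 genes in the 12 libraries of the deletion line, each point a library and each bar a group mean. For Lsr, Cst3, Cxcr3 and Id2 the cDC2 libraries with the deletion lie between littermate cDC2 and the cDC1 libraries, for Plcb4 they lie above every other library, for Lyz1 and Lyz2 between littermate cDC2 and cDC1, and for Clec9a and Cd36 below every other library.

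Plcb4 (chr2:135658603-136014602), a phospholipase C, was the gene of these 7 with the smallest p for the difference, and its direction turned. It was a cDC1 gene in the littermates, at 14.4 and 11.3 CPM in cDC1 and 2.76 and 3.19 CPM in cDC2. With the deletion it was higher in cDC2, at 31.9, 32.5, 37.6 and 36.2 CPM, than in cDC1, at 23.2, 24, 25 and 22.5 CPM, with no overlap. The log2 fold change went from -2.11 to 0.55, a difference of 2.66 ± 0.21 (adjusted p = 1.02e-07, edgeR). Its level rose with the deletion in cDC1 too, by 0.88 on the log2 scale (adjusted p = 0.0163, edgeR), and in cDC2 by 3.54. In all, 10 genes (0.076% of those tested) were called with the deletion against the side on which they were called in the Cre-negative cells of the transgene line, and 2 of the 10, Plcb4 and Cysltr1, passed the test of the difference. Cysltr1, a receptor of cysteinyl leukotrienes, was at 26.8, 33.1, 31 and 28.7 CPM in cDC2 and 18.2, 15.2, 25.9 and 21.5 CPM in cDC1 with the deletion, and at 5.79 and 12 and 24.5 and 16.6 CPM in the littermates. Its difference of 1.77 (adjusted p = 0.0218, edgeR) was lost without littermate cDC1 replicate 1 or littermate cDC2 replicate 1, with adjusted p up to 0.27, and was 2.39 without littermate cDC2 replicate 2. Spint2, Elmo3, Rab38 and Pacs1 were also called against their side, by 0.29, 0.95, -0.33 and 0.27 on the log2 scale, with differences that missed the threshold (adjusted p = 0.0958, 0.1, 0.375 and 0.401, edgeR).

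On the cDC2 side, the lysozyme genes lost most of their subset difference. Lyz1 was at 419.6 and 395 CPM in littermate cDC2 and 79.4, 52.7, 57.5 and 70.6 CPM in cDC2 with the deletion, while cDC1 with the deletion held 41, 38.6, 43.7 and 36.6 CPM. Its log2 fold change went from 3.20 to 0.70, a difference of -2.50 ± 0.26 (adjusted p = 1.22e-05, edgeR). Lyz2 fell in cDC2 from 2394 and 1931 CPM to 692, 442, 467 and 712 CPM, and its log2 fold change went from 2.72 to 0.93 (difference -1.79, adjusted p = 0.000531, edgeR). Lyz1 and Lyz2 are near-identical genes, so how reads were shared between them is uncertain. Both calls held under every alternative run. Csf1r, the receptor of macrophage colony-stimulating factor, was at 418, 528, 450.1 and 464 CPM in cDC2 with the deletion and 981 and 751 CPM in littermate cDC2, and remained 19.9-fold higher in cDC2 than in cDC1. Its difference of -1.22 (adjusted p = 0.00811, edgeR) was lost without littermate cDC1 replicate 1 or littermate cDC2 replicate 1, with adjusted p up to 0.137.

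The other narrowed genes named on the cDC2 side had smaller or less stable differences. Ccnf, cyclin F, was at 29.3, 24.9, 27.6 and 23.6 CPM in cDC2 with the deletion and 46 and 54.1 CPM in littermate cDC2, with a difference of -1.19 (adjusted p = 0.00412, edgeR) that was lost against the controls of both lines (adjusted p = 0.122). Tuba1b, an alpha tubulin, was not called between the subsets with the deletion (-0.16, adjusted p = 0.162, edgeR) and had a difference of -0.92 between the contrasts, lost without littermate cDC1 replicate 2 or littermate cDC2 replicate 1. Noc2l, an inhibitor of histone acetylation, had a difference of -0.68, lost without replicate 1 of either littermate group. Both stood near level in the Cre-negative cells that gave their side (0.02 and 0.07). Spats2 went in cDC2 from 14.6 and 14.5 CPM to 5.70, 9.03, 5.88 and 8.24 CPM (difference -2.49, lost without littermate cDC1 replicate 1). Zfp831, a zinc-finger gene, was at 0.0751 and 0 CPM in littermate cDC1 and 0.838, 0.873, 0.926 and 1.08 CPM in cDC1 with the deletion. Littermate cDC1 thus had 2 counts in all. Its difference of -4.03 became -7.23 without littermate cDC1 replicate 1 and -3.20 without replicate 2, and the call was lost without either of them or littermate cDC2 replicate 1.

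Of the genes that moved further toward cDC1, 7 of 46 were of the cDC1 signature and 2 of the cDC1 identity list, Clec9a and Cd36. Of the 13166 genes tested, 487 were of that signature and 19 of that list. Clec9a, the lectin receptor with which cDC1 sense dead cells, was at 2.95, 1.27, 3.21 and 3.33 CPM in cDC2 with the deletion and 17.6 and 11.9 CPM in littermate cDC2. In cDC1 with the deletion it held 233, 229, 281 and 220.3 CPM, and littermate cDC1 held 251 and 283 CPM. The log2 fold change was -6.48 with the deletion, -4.18 in the littermates and -5.40 in Cre-negative cells of the transgene line, where cDC2 stood at 5.34 and 6.94 CPM. The difference of -2.30 ± 0.33 passed the test (adjusted p = 0.000656, edgeR). Cd36, a scavenger receptor, was at 4.85, 3.29, 5.65 and 5.65 CPM in cDC2 with the deletion, 17.5 and 15.2 CPM in littermate cDC2 and 7.77 and 6.73 CPM in Cre-negative cDC2 of the transgene line. Its difference was -1.63 ± 0.26 (adjusted p = 0.00222, edgeR). For both genes every cDC2 library with the deletion was below both littermate libraries, and both calls held under every alternative run, the controls of both lines among them (-1.69 and -1.23).

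Sh3pxd2b, an adaptor of podosomes, had 1.98, 2.65, 1.59 and 2.24 CPM in cDC2 with the deletion against 6.79 and 4.96 CPM in the littermates (difference -1.50, lost without littermate cDC2 replicate 1 or against the controls of both lines). Clec12a, an inhibitory lectin receptor that was listed with the cDC2 genes but was higher in cDC1 in every comparison, fell in cDC2 from 101 and 88.4 CPM to 56.1, 46.7, 58.5 and 54.6 CPM. Its difference of -0.74 (adjusted p = 0.00617, edgeR) was lost without replicate 1 of either littermate group. Chtf18, a clamp loader subunit of DNA replication, was 13.7 and 12.4 CPM in littermate cDC2 and 4.65, 5.66, 4.53 and 5.34 CPM with the deletion (difference -1.64, adjusted p = 0.00213, edgeR, kept under every alternative run). Ccnd3, cyclin D3, went from 257 and 176 to 102, 108, 107 and 112 CPM in cDC2 and Flna, the actin cross-linker filamin A, from 1137 and 894 to 602, 695, 664 and 596 CPM. Their differences of -1.42 and -0.92 were lost without littermate cDC2 replicate 1. In the Cre-negative cells that gave their side, Chtf18, Ccnd3 and Flna stood near level between the subsets (-0.27, -0.17 and -0.43). Paqr4, a membrane protein, had a difference of -1.32, lost without replicate 1 of either littermate group.

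On the cDC2 side the contrast widened for Cdh17, an intestinal and B cell cadherin. It stood at 97.7, 175, 115 and 124 CPM in cDC2 with the deletion and 13.5 and 21.3 CPM in littermate cDC2, with 0.533, 1.87, 1.90 and 3.28 CPM in cDC1 with the deletion. The log2 fold change went from 2.37 to 6.09, a difference of 3.72 ± 0.70 (adjusted p = 0.00845, edgeR) that was lost without replicate 1 of either littermate group (adjusted p up to 0.12). Prnp, the prion protein, was at 89.9, 135, 121 and 101 CPM against 48.6 and 47.7 CPM in littermate cDC2 (difference 1.06, lost without littermate cDC2 replicate 1). Hpgds, the prostaglandin D synthase of blood cells, was at 3.64 and 2.94 CPM in littermate cDC1 and 1.49, 1.21, 2.16 and 1.25 CPM in cDC1 with the deletion (difference 1.42, lost without replicate 1 of either littermate group and with the 12 libraries of the deletion line alone). Hiatl1, a membrane transporter-like gene, had a difference of 0.76, lost without replicate 1 of either littermate group, and Zxda, a zinc-finger gene, 1.39, lost in those 2 fits and against the controls of both lines. Tmem106b and Gabarapl2, genes of lysosomes and autophagy, had differences of 0.74 and 0.53, lost in 6 and 11 alternatives, against the controls of both lines among them. Chil3, a chitinase-like protein, had 207 counts over the 4 cDC2 libraries with the deletion, 1 over the cDC1 libraries (ratio 194, 95% counting interval 34.4 to 7690), and was at 0 in littermate cDC2, so its fitted difference is not given a size here. It was lost without littermate cDC1 replicate 2 or either littermate cDC2 library.

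The gene lists below hold members picked for their roles, not for how they moved, and the counts are read against the 29% of all genes higher and 27.1% lower in cDC2 with the deletion. The Cre-negative libraries of both lines had 27.6% and 25.8%. Of 28 lineage transcription factors, 18 were called higher and 7 called lower in cDC2 with the deletion, beside 15 and 7 for the Cre-negative libraries. Apart from Id2, 0 of them passed the test of the difference. Mycl, a Myc family factor of cDC1, was at 878, 868, 923 and 994 CPM in cDC1 and 216, 182, 227 and 242 CPM in cDC2, with log2 fold changes of -2.08 with the deletion and -2.13 in the littermates. Among 6 E protein and Id genes tested, 1 was higher and 2 lower with the deletion, against 3 and 2 in the Cre-negative libraries. Tcf4, the E protein of plasmacytoid cells, stood at 59.2, 53.9, 55.1 and 51.6 CPM in cDC2 and 21.3, 17.5, 24.4 and 25.1 CPM in cDC1 (1.32, against 1.71 in the littermates). The other member called lower besides Id2 was Id1, at 0.194, 0.911, 0.658 and 0.735 CPM in cDC2 and 0.876, 3.16, 4.81 and 1.21 CPM in cDC1, a call lost without cDC1 replicate 3 (adjusted p = 0.0559).

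The sensing and uptake receptors were mostly cDC2 genes. Of 24 microbial sensors, 17 were higher and 4 lower in cDC2 with the deletion, against 14 and 6 in the Cre-negative libraries. Tlr7, the sensor of single-stranded RNA, was at 149.6, 149, 142 and 155 CPM in cDC2 and 0.152, 0.166, 0.0882 and 0.302 CPM in cDC1, and Nod1, a cytosolic sensor of peptidoglycan, was 4.23-fold higher in cDC2. Tlr12, the partner of Tlr11, was at 268, 285, 275 and 288 CPM in cDC1 and 9.46, 6.73, 9.13 and 8.05 CPM in cDC2. Tlr4, the sensor of lipopolysaccharide, was the member that passed the test of the difference (1.28, adjusted p = 0.0333, edgeR), with 29.2, 23.8, 26 and 33.4 CPM in cDC2 with the deletion and 12.4 and 12.2 CPM in the littermates. Its direction turned, from a log2 fold change of -0.64 to 0.65. The call of the difference was lost without 7 single libraries, among them 3 of the 4 littermates. Of 25 lectin receptors, 16 were higher and 7 lower with the deletion, against 16 and 5, and Clec9a, Clec12a and Clec4b2 passed the test of the difference. For Clec4b2 that call was not followed under the alternative runs. Clec4a1 and Clec4a3, relatives of Clec4a4, had log2 fold changes of 9.57 and 8.40, the latter 9.01 without cDC1 replicate 3, and reads shared among the Clec4a genes make their split uncertain.

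Of 22 SIRP, Cd300, Fc and Lilr receptors, 17 were higher and 2 lower in cDC2 both with the deletion and in the Cre-negative libraries, and Fcrla was the member whose contrast changed. Fcer1g, the signalling chain of Fc receptors, was at 583, 566, 554 and 529 CPM in cDC2 and 48.3, 53.8, 46 and 45.5 CPM in cDC1 with the deletion. Cd300lf, an inhibitory receptor for lipids, was 29.5-fold higher in cDC2. Sirpb1a, an activating relative of Sirpa, had a log2 fold change of 10.87, 11.82 without cDC1 replicate 3, and its relative Sirpb1b of 8.66. These SIRP genes are alike in sequence and their split is uncertain.

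Receptors for migration were divided between the subsets. Of 21 chemokine and migration receptors, 12 were higher and 5 lower with the deletion, against 9 and 5 in the Cre-negative libraries, and Cxcr3 and Ccr2 passed the test of the difference. Ccr2, the receptor that draws monocytes out of bone marrow, was at nearby levels in the littermates, 156 and 137 CPM in cDC2 and 119 and 102 CPM in cDC1. With the deletion it was at 41.9, 26.9, 58 and 42.4 CPM in cDC2 and 184, 141, 186 and 179 CPM in cDC1, a log2 fold change of -2.03 ± 0.35 (adjusted p = 3.36e-05, edgeR). The difference of -2.43 (adjusted p = 0.0474, edgeR) was lost in 10 of the fits without 1 library, with adjusted p up to 0.255. Ccr6, the receptor of Ccl20, was at 39.5, 49, 46.8 and 45.2 CPM in cDC2, P2ry14, a receptor of nucleotide sugars, at 180.4, 187, 191 and 210.0 CPM in cDC1, and Cx3cr1, the fractalkine receptor, at 20.0, 15.9, 23 and 27.1 CPM in cDC2 with the deletion and 109.8 and 74 CPM in littermate cDC2. For Cx3cr1 the difference of -2.01 missed the threshold (adjusted p = 0.104, edgeR). Of 25 chemokines and cytokines, 11 were higher and 6 lower with the deletion, against 7 and 7, with 0 passing the test of the difference by edgeR. Cxcl9 was 12.8-fold higher in cDC1, and the chemokines Ccl9 and Ccl3 22.2- and 5.58-fold higher in cDC2.

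Of 15 growth factor receptors, 12 were higher and 2 lower in cDC2 with the deletion, against 11 and 2, and Csf1r was the member whose contrast changed. Il2rg, the common gamma chain, was at 621, 607, 617 and 596 CPM in cDC2 and 87, 112, 92.8 and 79.8 CPM in cDC1. Of 23 integrins and adhesion genes, 12 were higher and 6 lower in both settings. Itgad, the integrin CD11d of red pulp macrophages, was at 53.3, 70.0, 72.2 and 70.8 CPM in cDC2 and 8.46, 8.69, 11.6 and 10.0 CPM in cDC1 with the deletion, and at 6.20 and 6.65 and 1.32 and 2.69 CPM in the littermates. It was thus higher in each subset with the deletion than in its littermates, and its subset difference of 2.78, against 1.69, did not pass as changed (adjusted p = 0.104, edgeR). For this rise in both subsets, Cre itself and the loss of Zeb2 cannot be told apart. Itgb3, the beta chain of the vitronectin receptor, was 46.1-fold higher in cDC2.

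Antigen presentation genes were called in both directions. Of 24 genes for MHC class I and cross-presentation, 15 were lower and 7 higher in cDC2 with the deletion, against 13 and 4 in the Cre-negative libraries, and 0 passed the test of the difference by edgeR. Pdia3, a chaperone of the class I loading complex, was at 1334, 1029.6, 1256 and 1132 CPM in cDC1 and 456, 386, 494 and 413 CPM in cDC2. The members higher in cDC2 included genes of the NADPH oxidase, with Cybb at 595, 562, 524 and 549 CPM in cDC2 and 3.31, 1.25, 5.42 and 6.12 CPM in cDC1, and Rac2 2.63-fold higher in cDC2. B2m and H2-K1, a shared and a heavy chain of class I molecules named after their values were seen, were also higher in cDC2, by 0.86 and 0.39 on the log2 scale (adjusted p = 1.07e-07 and 0.00936, edgeR). Of 16 MHC class II genes, 9 were called higher in cDC2 and 2 called lower (H2-DMb1 and March1) with the deletion, against 7 and 4, and H2-Aa, H2-Ab1, Cd74, H2-DMa and Ciita were not called. H2-DMb2, a peptide editor, had log2 fold changes of 2.55 with the deletion and 2.58 in the littermates, and the proteases Ctss and Ctsd 1.26 and 2.30 with the deletion. H2-Oa and H2-Ob, which restrain H2-DM, were 2.12- and 1.39-fold higher in cDC2, and H2-Ob passed the test of the difference (0.51, adjusted p = 0.0402, edgeR), a call lost in 12 alternatives. H2-DMb1 and H2-DMb2 are close copies.

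Of 18 maturation genes, 9 were higher and 4 lower with the deletion, against 10 and 4. Cd86, a ligand of CD28, was 4.11-fold and Cd1d1, which presents lipids, 2.73-fold higher in cDC1, while the inhibitory ligands Cd274 and Pdcd1lg2 were 6.68- and 10.4-fold higher in cDC2. Of 20 interferon response genes, 15 were called higher in cDC2 and 2 called lower with the deletion, against 15 and 3. Ddx58, the sensor RIG-I, was at 87.1, 88.8, 87.3 and 98.9 CPM in cDC2 and 0.609, 1.83, 2.25 and 2.16 CPM in cDC1 and Oasl2 at 102, 94.5, 97.6 and 131 CPM and 2.13, 1.12, 1.81 and 2.59 CPM. Rtp4 and Oas1a were 246- and 16.9-fold higher in cDC2. Of 18 TGF-beta pathway genes, 10 were higher and 1 lower with the deletion, against 12 and 1, the inhibitory Smad7 3.37-fold higher in cDC2 and Smad3 2.27-fold higher in cDC1. For the maturation, interferon and TGF-beta lists 0 members passed the test of the difference by edgeR, and 0 also for the integrins.

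The cell cycle list summed to 737 to 979 CPM in cDC2 with the deletion, 1425 to 1467 CPM in littermate cDC2, 862 to 1205 CPM in cDC1 with the deletion and 1076 to 1143 CPM in littermate cDC1. Of its 20 members, 2 were higher and 8 lower in cDC2 with the deletion. The littermates had 8 higher and 0 lower, and the Cre-negative libraries of both lines 5 and 1. The median log2 fold change was -0.24 with the deletion, 0.36 in the littermates and 0.05 in the Cre-negative libraries, beside 0.0469, 0.0335 and 0.0477 over all genes. The 2 control lines differed here. In the Cre-negative libraries of the transgene line alone, no member was called higher in cDC2, and Cdc20 (-0.87) and Tyms (-0.53) were called lower. The contrast with the littermates thus rests on control levels that the other control line did not share. Mcm5, a subunit of the replicative helicase, was at 96.3, 91.4, 111 and 126 CPM in cDC2 and 170.0, 125, 143 and 158 CPM in cDC1 with the deletion, and at 186 and 171 and 156 and 149 CPM in the littermates. Its log2 fold change was -0.49 with the deletion and 0.22 in the littermates, and the difference missed the threshold (adjusted p = 0.081, edgeR). Pcna, the replication clamp, and Tyms, thymidylate synthase, were lower in cDC2 by 1.25- and 1.52-fold, while the mitotic kinase Aurka was 1.47-fold higher. Mcm3 alone passed the test of the difference (-0.87, adjusted p = 0.0478, edgeR), and that call was lost in 12 alternatives.

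Of 20 epithelial genes that ZEB factors are known to repress, 12 were abundant enough to test, and 6 were higher and 2 lower in cDC2 with the deletion, against 4 and 3 in the Cre-negative libraries. Cldn1, a tight junction claudin, was the member whose contrast changed. It was at 4.59 and 2.50 CPM in littermate cDC2 and 13.1, 23.2, 18.7 and 15.8 CPM in cDC2 with the deletion, with 26.1, 46.4, 36.5 and 29.3 CPM in cDC1 (difference 2.27, adjusted p = 0.0107, edgeR). The call was lost without littermate cDC1 replicate 1 or littermate cDC2 replicate 2 (adjusted p up to 0.0761). Epcam, an epithelial adhesion molecule, was at 50.2, 56, 38.1 and 48.6 CPM in cDC2 with the deletion and 13.3 and 11.3 CPM in littermate cDC2, and its difference of 1.99 missed the threshold (adjusted p = 0.0698, edgeR). Cdh1, E-cadherin, had 136 counts in the cDC2 libraries with the deletion and 2 in the cDC1 libraries, a ratio of 63.7 (95% counting interval 17.3 to 531). St14 and Spint1, a membrane protease and its inhibitor, were 10.2- and 1.70-fold higher in cDC2. Of 20 early response and heat shock genes, 10 were called higher and 4 called lower in cDC2 with the deletion, against 9 and 3, among them Zfp36, Dusp1, Egr1 and Jun, 2.39-, 2.14-, 2.26- and 1.75-fold higher.

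**Figure D5:**
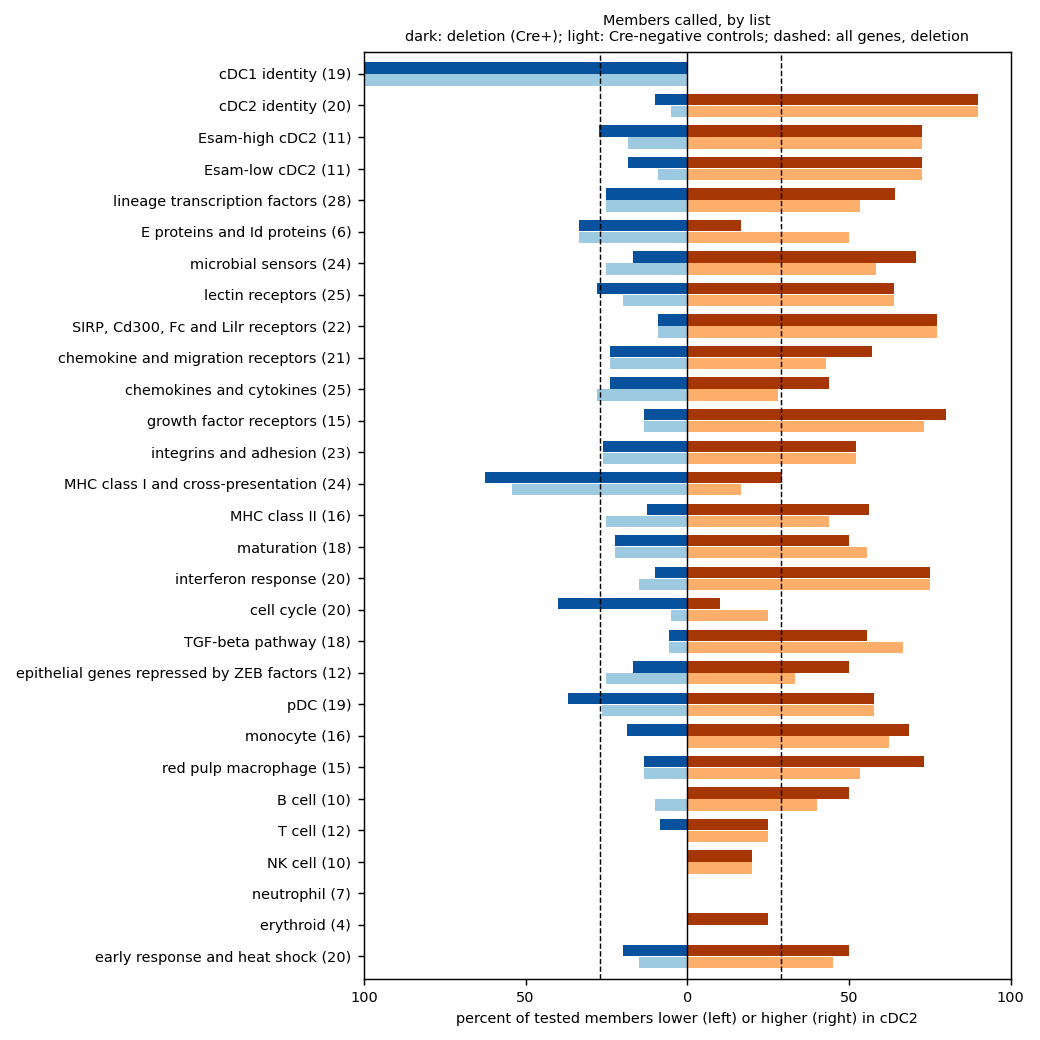
Percent of tested members of each gene list (number in brackets) called higher (right) or lower (left) in cDC2, with the deletion (dark bars) and in the 8 Cre-negative libraries (light bars). The dashed lines mark 29% higher and 27.1% lower over all genes with the deletion, and the cell cycle list is the one with 8 members lower with the deletion and 1 in the controls.

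Markers of other spleen cells were measured in the same libraries. The B cell list, 11 genes, summed to 245 to 305 CPM in cDC2 with the deletion, 72.5 to 91.9 CPM in littermate cDC2, 64.1 to 78.2 CPM in littermate cDC1 and 30.9 to 85.8 CPM in cDC1 with the deletion. Ms4a1, the gene of CD20, made most of it in cDC2 with the deletion, at 163, 175, 193 and 212 CPM, against 38.5, 26.1, 68.9 and 45.4 CPM in cDC1. In the littermates it was higher in cDC1, at 49.6 and 64.8 CPM against 12.1 and 22.5 CPM in cDC2, so that its direction turned from a log2 fold change of -1.73 to 2.06. The difference of 3.78 (adjusted p = 0.00782, edgeR) was lost without littermate cDC2 replicate 1. Fcer2a, the low-affinity IgE receptor, was at 29.2, 25.2, 40.5 and 26.5 CPM against 4.44 and 4.69 CPM and Blk, a B cell kinase, at 15.9, 18.7, 20.3 and 16.7 CPM against 6.38 and 10.3 CPM. Cd79b, a chain of the B cell receptor, was lower, 25.9, 20.7, 32.4 and 34.7 CPM with the deletion and 40.8 and 40.4 CPM in littermate cDC2. Cd79a, the partner chain of Cd79b, had a mean of 4.16 CPM in cDC2 with the deletion and 4.95 CPM in the littermates. Of the 10 members tested, 5 were higher and 0 lower in cDC2 with the deletion, against 4 and 1 in the Cre-negative libraries. The part of B cells in the levels of Ms4a1, Fcrla and Cdh17 was not tested.

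The monocyte list, 17 genes, summed to 6009 to 8435 CPM in cDC2 with the deletion and 8872 to 9970 CPM in littermate cDC2, with Nr4a1 its most abundant member. In cDC1 it ran from 2105 to 4012 CPM with the deletion. Of 16 members tested, 11 were higher and 3 lower in cDC2 with the deletion, against 10 and 0. Ccr2, Lyz1, Lyz2, Chil3 and Csf1r passed the test of the difference, which 1.08% of all genes did. Chil3 alone of these moved toward cDC2. The calls of Ccr2, Chil3 and Csf1r were lost in some alternatives, as given above, while those of Lyz1 and Lyz2 held. Ms4a4c was at 264, 239, 269 and 309.5 CPM in cDC2 with the deletion, above both littermate cDC2 libraries at 163 and 218 CPM. Ms4a6c was at 198, 154, 202 and 181 CPM with the deletion, below both littermate cDC2 libraries at 216 and 259 CPM. The part of monocytes in the levels of Lyz1, Lyz2 and Csf1r was not tested.

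The plasmacytoid list, 19 genes, had 11 members higher and 7 lower in cDC2 with the deletion, against 11 and 5, and Fcrla passed the test of the difference. Its defining marker Siglech was low, with a mean of 1.81 CPM in cDC2 with the deletion and 4.56 CPM in the littermates. Cox6a2, a muscle and plasmacytoid cell cytochrome oxidase subunit, was at 15.2, 23.3, 16.1 and 12.8 CPM in cDC2 with the deletion and 0.336 and 0.577 CPM in littermate cDC2, and in cDC1 at 1.71, 2.00, 1.19 and 1.12 and 0.113 and 0.21 CPM. Like Itgad, it was thus higher in each subset with the deletion than in its littermates, and the same limit holds. The subset difference of Cox6a2 was 3.47 with the deletion and 1.49 in the littermates, a change that missed the threshold (adjusted p = 0.346, edgeR). Lair1 and Spib were 20.2- and 20.3-fold higher in cDC2.

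The red pulp macrophage list, 15 genes, summed to 542 to 1008 CPM in cDC2 with the deletion, 669 to 691 CPM in littermate cDC2 and 160 to 205 CPM in cDC1 with the deletion. Its members with the smallest p were Adgre1, C1qa, C1qc and Axl, and replicates 3 and 4 of cDC2 were the highest for C1qa (28.2, 33.5, 64.7 and 54.4 CPM) and Axl (47.7, 50.5, 97.5 and 98.9 CPM). The T cell list summed to 103 to 159 CPM in cDC2 with the deletion, mostly Tcf7, and Cd3e had a mean of 0.881 CPM there. Its other calls were Cd5, 4.15-fold higher in cDC2, Cd247, 2.63-fold lower, and Cd3g, 2.65 on the log2 scale, lost without any of 4 libraries (adjusted p up to 0.0783). The NK cell list summed to 159 to 232 CPM in cDC2 with the deletion, of which Klrd1 made 229, 158, 215 and 220.5 CPM, while Ncr1 and Klra8 were at 0 there and Klrb1c had 38 counts. Neutrophil markers summed to at most 9.21 CPM and erythroid markers to at most 7.16 CPM in cDC2 with the deletion. Of those, Slc4a1, the anion exchanger of red cells, was at 0.969, 0, 0.774 and 3.99 CPM there and at 0 in littermate cDC2, and its calls rest on these few reads.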

How the data were processed

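RNA of cDC1 and cDC2 sorted from mouse spleen was sequenced in 24 libraries of 8 groups. Per the labels' protocols, cDNA was made from 4 ng of RNA with SMART-Seq v4 and 15 PCR cycles, and 75-base reads were taken on 2 NextSeq500 flow cells. Per the submitters' processing notes, FastQC 0.11.4, Trimmomatic 0.35, TopHat2 2.1.0 and SAMtools 0.1.18 were used with mm10. The authors deposited whole-number counts per gene symbol for each library. The counting program is not given in the sources used here, nor are its annotation and strand setting, so genes that overlap or are near-identical may share reads. Lines for reads in no gene (10.43 to 15.68% of a library's counts summed over all lines) or in several (0.970 to 1.086%) were left out. No 2 libraries of a group agreed within sampling noise.

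Genes were filtered with filterByExpr (minimum count 10, total 15), and counts were scaled by TMM and tested by edgeR 4.0.16 (R 4.3.3, limma 3.58.1) with a quasi-likelihood F test. All 24 libraries entered 1 fit of 8 group means, so that groups share 1 estimate of the spread, with Benjamini-Hochberg adjustment over the 13166 genes tested at 0.05. Log2 fold changes are cDC2 over cDC1. CPM are TMM-scaled, not per length, and compared between libraries only. The SE is the absolute log2 fold change over the square root of F. The difference of contrasts is the deletion contrast minus that of the littermates. A gene's side is its direction in the Cre-negative libraries of the transgene line, where the signatures (at least 4-fold) were also chosen. Counting intervals (95%, exact Poisson ratio) and floors cover counting error only. The tests were checked on simulated counts, with changes planted in 200 genes set at 1 CPM or more in both compared groups. For the deletion contrast, 82% of 2-fold and 97% of 4-fold changes were recovered in a run over 12958 genes. Genes below that level in either subset were not covered.

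Named genes are Zeb2, Id2, the identity lists, up to 4 members of each other list with the smallest p with the deletion and up to 2 for the difference, the 10 widest fold changes each way (mean log2 CPM at least 2), the 8 smallest p of each class of changed contrast and up to 6 turned genes. Genes named outside it (Clec4b2, Cd79a, Cd3e, Siglech, Ncr1, Klra8, Nr4a1) were chosen after their values were seen. A few genes that the rule would name are not reported here. The members, lists and tests were chosen with earlier results of these data known. Of 165 named genes, 164 matched RefSeq. Promoters come from RefSeq (GRCm38.p6), and the 250 bases before the start were read, not the planned 300, to leave transcribed bases out. Alternatives were DESeq2 1.42.0, its size factors, other filters, other sets of libraries, controls of both lines, a 2-fold signature, a replicate block and leaving out each library.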

Additional observations from a re-analysis of the deposited data

Results flagged for a closer look

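In 21 of 314 groups of 4 libraries with the deletion, over the 157 genes named, the highest or lowest library stood apart from the other 3 by more than Dixon's 95% critical value. That is 6.688% of the groups, where chance gives about 1 in 20. In cDC1, replicate 1 was high for Clec12a (201 CPM), replicate 2 was high for Il1rn (0.915 CPM) and apart for Relb (272 CPM), Ccr2 (141 CPM) and Prnp (71.3 CPM). Replicate 3 of cDC1 was apart for Lyz2 (348 CPM), Fcrla (84.2 CPM) and Cd247 (1.46 CPM), and it held the single read of Clec4a4 and of Klrb1c (0.0441 CPM each). Replicate 4 of cDC1 was apart for Notch2 (385 CPM), Cd1d1 (116 CPM) and Zxda (7.89 CPM), and it held the reads of Cdh1 (0.0862 CPM) and Chil3 (0.0431 CPM). In cDC2, replicate 1 was apart for Ppt1 (199 CPM) and Itgad (53.3 CPM), replicate 3 for Chil3 (4.64 CPM), and replicate 4 for Gcsam (0.155 CPM), Cd207 (0.232 CPM) and Ddx58 (98.9 CPM).

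For 42 named genes, most of them named for this test, the subset difference differed between the deletion and its littermates by edgeR's test of the difference. The log2 differences that narrowed a contrast of the cDC1 side were 4.39 for Ttc39a, 3.61 for P3h2, 3.56 for Fcrla, 2.66 for Plcb4, 2.46 for Cxcr3, 2.27 for Cldn1, 2.24 for Snx22, 1.87 for Lsr, 1.78 for Hepacam2, 1.77 for Cysltr1, 1.21 for Id2 and 1.16 for Cst3. They were 3.78 for Ms4a1 and 1.28 for Tlr4, both called higher in cDC1 in the littermates and in cDC2 with the deletion. On the same side, the values that moved a gene further toward cDC1 were -2.30 for Clec9a, -1.64 for Chtf18, -1.63 for Cd36, -1.50 for Sh3pxd2b, -1.42 for Ccnd3, -1.32 for Paqr4, -0.92 for Flna and -0.74 for Clec12a. Genes of the cDC2 side or near level between the subsets had -4.03 (Zfp831), -2.50 (Lyz1), -2.49 (Spats2), -2.43 (Ccr2), -1.79 (Lyz2), -1.22 (Csf1r), -1.19 (Ccnf), -0.92 (Tuba1b), -0.87 (Mcm3) and -0.68 (Noc2l). Positive values in such genes were 3.72 (Cdh17), 1.42 (Hpgds), 1.39 (Zxda), 1.06 (Prnp), 0.76 (Hiatl1), 0.74 (Tmem106b), 0.53 (Gabarapl2) and 0.51 (H2-Ob). The fitted values of 13.51 for Chil3 and 11.57 for Slc4a1 are set against littermate cDC2 libraries at 0, depend on the prior count and are no bound.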

How the results depend on the processing

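No result changed direction under any alternative run. Of 127 named genes called between the subsets with the deletion, 124 kept their call under every alternative, the exceptions being Cd3g, Id1 and Notch2. Of 41 genes followed for the difference of contrasts and called there, 13 kept that call under every alternative. Without 1 library at a time, narrowed genes ranged from 14 to 58 on the cDC1 side and 4 to 22 on the cDC2 side, and widened genes from 3 to 61 and 0 to 26. In the same fits the Id2 difference ranged from 0.873 to 1.62, that of Zeb2 from -3.42 to -1.01, and the signature medians in the littermates from -3.11 to -2.84 (cDC1) and 3.32 to 3.73 (cDC2), the signatures being chosen anew where a transgene-line library was left out. DESeq2's Wald test called 100 narrowed and 102 widened genes on the cDC1 side and 55 and 79 on the cDC2 side. With the 12 libraries of the deletion line alone, 24 genes widened on the cDC1 side and 12 on the cDC2 side. A filter of at least 5 CPM in 4 libraries left 1196 genes at least 2-fold higher in cDC2 with the deletion, fewer genes being tested. With signatures at least 2-fold apart, more genes entered and the medians were 2.03 with the deletion and 2.1 in the littermates (cDC2) and -1.53 and -1.60 (cDC1). Where only genes with a called side were counted, a choice made after seeing the data, 11 narrowed and 12 widened on the cDC2 side and 27 widened on the cDC1 side. Except where stated, the cause of a changed value was not tested.

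The labels give groups the same replicate numbers without saying what a number shares. With a prior count of 2, deviations of same-numbered cDC1 and cDC2 libraries with the deletion correlated across genes at 0.0764 to 0.170, replicate 3 below 0.1. With a prior count of 0.5 the range was 0.0566 to 0.132, with replicates 1, 3 and 4 below 0.1. Each library correlated best with its own number in 4 of 4, a hint from the data and not from the design. In the littermates the same-numbered correlations were near 0, at -0.00779 and 0.00293 for these prior counts. In a fit with a replicate block, 3890 genes were called higher in cDC2 and 3586 called lower with the deletion, 58 and 39 genes narrowed and widened on the cDC1 side and 19 and 24 on the cDC2 side, and the Id2 difference was 1.24 (adjusted p = 0.0167, edgeR). Cd3g (adjusted p = 0.0709) and the difference of Hpgds (0.0606) lost their calls and the difference of Spint2 gained one (0.0356). The littermate groups of 2 libraries limit the difference of contrasts, whose test on simulated counts recovered 59% of 2-fold changes.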
